A study of Mus musculus with 12 samples.

Results

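The total translatome is the RNA left in the ribosome-bearing part of a cell lysate after mRNAs translated near the cell cortex have been taken out. It was compared here between scratch wounded and unwounded cultures of mouse keratinocytes, the cells that build the epidermis. The libraries were chosen by their labels, and they are 3 wounded total and 3 unwounded total libraries, 6 of the 12 in the series. The other 6 are the matching cortical libraries, which entered the model for its estimate of the spread and one comparison near the end. All cells, wounded or not, carried the genotype WT DP-BirA(1-584), in which an amino-terminal piece of desmoplakin, the plaque protein of desmosomes, is fused to the biotin ligase BirA. All were grown to confluence without calcium and then given calcium (listed at 1.2 micromolar), which starts differentiation, and 2 µg/mL doxycycline, which switches on the fusion protein. The unwounded group was left intact and the wounded group was scratched, and both then received biotin for 16 h. Ribosome-bearing material was separated from the lysate on a sucrose gradient and then mixed with neutravidin resin, which holds what carries biotin. The total translatome is what the resin did not hold.

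A scratch in a sheet of keratinocytes turns cells at the edge from a resting into a migrating state. In that state keratinocytes are known to make the wound-edge keratins, renew integrin and laminin contacts with the matrix beneath them, and send cytokine signals. An mRNA can become more abundant in a translating fraction because there is more of it or because more of it is on ribosomes. No whole-cell RNA was measured, so the 2 cannot be told apart here. In the total fraction it can also rise because the resin held less of it, and this was not tested. Likewise, a change in some cells of the dish and a smaller change in all of them cannot be told apart in bulk RNA.

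The 6 libraries held 15998772 to 22987884 counted fragments. Of 54532 genes listed, 13571 had enough counts to be tested. Values below are CPM, counts scaled to a common library total after TMM normalization (which aligns the bulk of genes between libraries), given for replicates 1 to 3 in turn. Positions are on GRCm38, and because the libraries were not directional, genes that overlap on opposite strands, and close copies such as keratins and ribosomal proteins, carry an added uncertainty. The labels call the libraries of a group biological replicates without saying whether they came from separate cultures, so p-values measure the spread between these libraries. The cells matched their label: the 12 keratinocyte markers summed to 11741 to 13002 CPM in unwounded and 18922 to 21328 CPM in wounded libraries, and 0 of them was absent. Fibroblast markers summed to at most 6.47 CPM, with Dcn, Lum, Pdgfrb and Thy1 at 0 counts. Immune markers summed to 20.9 to 24.9 CPM in unwounded and 43.2 to 58.7 CPM in wounded libraries, almost all of it the lysosomal gene Cd68. Of the 9 immune markers, 7 were at 0 counts in all 6 libraries, the pan-leukocyte marker Ptprc and the macrophage markers Csf1r and Adgre1 among them.

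Wounded replicate 1 stood apart from the other libraries. Only 13117 genes had a count in it, where the other 5 total libraries had 15910 to 16867. Among genes expected at 10 to 20 counts from the mean of the other 11 libraries, 41.0% had 0 counts in it, against 0.916% to 4.48% in the other 5. Its Spearman correlation across genes was 0.966 and 0.962 with wounded replicates 2 and 3, which correlated with each other at 0.990. With the wounded cortical libraries it correlated at 0.962 to 0.966, with the unwounded total ones at 0.961 to 0.965 and with the unwounded cortical ones at 0.956 to 0.959, so by this measure it was no closer to its own group than to the first 2 of these. Its TMM factor of 1.05 and its mitochondrial share of 2.62% lay near those of the wounded cortical libraries (1.05 to 1.07, and 2.48% to 2.54%) and away from those of wounded replicates 2 and 3 (0.831 and 0.843, and 3.31% and 3.65%). It is kept under its label. For gene lists, the counts of higher and then lower members are followed by the same 2 counts without it, and by their range without another of the total libraries, each of the other 5 being left out in turn.

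The wounded and unwounded total translatomes differed in many genes, most of them by less than 1 log2 unit. At an adjusted p under 0.05 (edgeR quasi-likelihood F test, Benjamini-Hochberg adjustment over all genes tested), 2116 genes were called, which is 15.6% of those tested. They split into 1139 higher (8.39%) and 977 lower (7.2%) in wounded libraries, and 3972 genes had an unadjusted p under 0.05. Among the called genes, 170 were at least 1 log2 unit higher and 210 at least 1 log2 unit lower. Without wounded replicate 1, 3502 of 14073 genes were called (24.9%), 1887 higher (13.4%) and 1615 lower (11.5%). Both fits called 1973 genes in the same direction, which is 93.2% of the calls with all libraries and 56.3% of the calls without replicate 1. The balance between rises and falls depended on scaling, since 708 genes were higher and 1104 lower when libraries were scaled by their totals alone. That scaling moved the median of all genes from -0.03 to -0.10 on the log2 scale, and directions below are relative to the TMM scale. Of the called genes, 1991 were protein coding. In 14.5% of all genes tested every wounded library lay above every unwounded one, and in 17.6% below. The rule by which most genes are named below asks for groups apart, so for them this trait is built in. List counts with all libraries are read below against the shares of 8.39% and 7.2%. Those without wounded replicate 1 have the shares of 13.4% and 11.5% as their match. Leaving out another library lowered the calls over all genes too. These ran from 600 higher and 528 lower of 14116 (without unwounded replicate 1) to 845 and 718 of 14167 (without unwounded replicate 3).

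**Figure D1:**
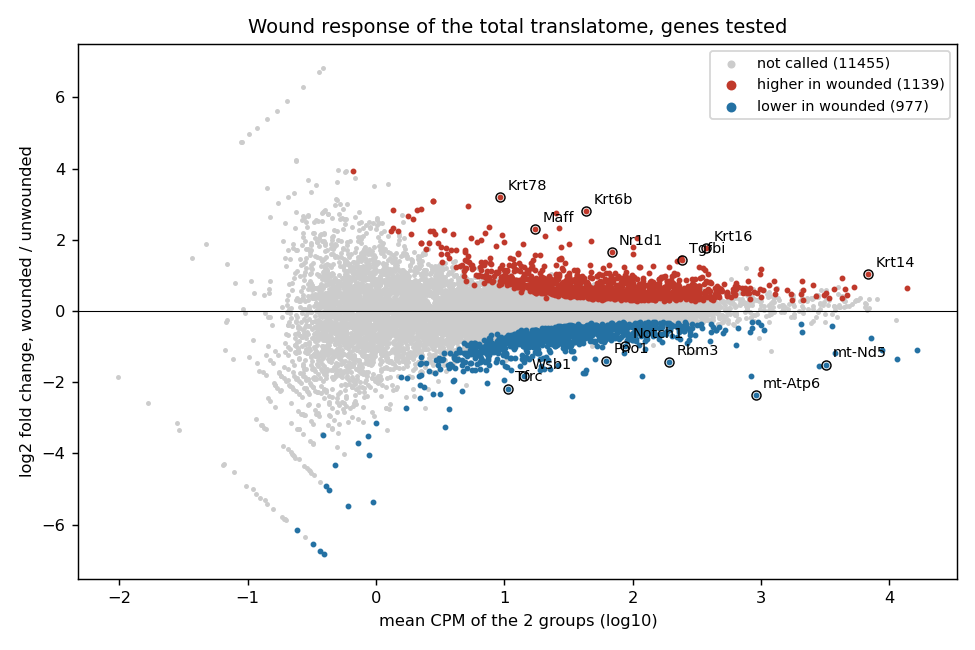
Each point is 1 of the genes tested, with the mean CPM of the 2 groups on a log10 axis (horizontal) and the log2 fold change of wounded over unwounded (vertical). Red points are the 1139 genes called higher and blue points the 977 called lower, grey points were not called, and the genes circled in black are named. Of the circled keratins, Krt14 lies furthest right, and Krt78, with a low mean CPM, lies furthest left and highest. The circled mitochondrially encoded mRNAs, mt-Atp6 and mt-Nd5, lie at the lower right.

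The wound-edge keratins rose together. These are the intermediate filament proteins Krt6a, Krt6b, Krt16 and Krt17, which resting epidermis between hair follicles makes little of and which keratinocytes at a wound make in quantity. All 4 were called higher, with and without wounded replicate 1 and under each of the 3 other scalings. Krt6b (ENSMUSG00000023041, chromosome 15, 101676023 to 101680287) measured 12.8, 9.48 and 10.3 CPM in the unwounded libraries and 58.7, 83.4 and 85.6 CPM in the wounded ones. Its groups lay far apart, and the wounded replicate 1 value was the lowest of its group (log2 fold change 2.80, SE 0.17, adjusted p = 1.79e-07). Krt16, its usual partner in the filament, measured 177, 167 and 162 CPM before and 475, 610.3 and 648 CPM after wounding (log2 fold change 1.77, SE 0.12, adjusted p = 2.37e-07). Krt6a and Krt17 were already abundant in unwounded cells, at 1677, 1323 and 1479 CPM and 3465, 3708 and 3605 CPM. They reached 2421, 2802 and 2868 CPM (log2 fold change 0.85, SE 0.11) and 4327, 5816 and 6443 CPM (log2 fold change 0.62, SE 0.12), and in neither gene did the groups overlap.

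Of 7 basal and suprabasal keratins tested, 4 were called higher and 0 lower (5 and 0 without wounded replicate 1, 3 to 4 and 0 without another). The largest fold change of any gene that met the naming rule was that of Krt78 (ENSMUSG00000050463, chromosome 15, 101946001 to 101954287), a type II keratin. It measured 2.11, 1.35 and 2.0 CPM in unwounded and 22.3, 15.6 and 12.4 CPM in wounded libraries (log2 fold change 3.19, SE 0.28, adjusted p = 2.62e-06). All 3 wounded values were several times any unwounded value, though the gene stayed at a low level. The basal keratins Krt5 and Krt14, the filament pair of dividing keratinocytes, also rose. Krt14 went from 4434, 4229 and 4804 CPM to 7037, 9791 and 10888 CPM (log2 fold change 1.04, SE 0.13, adjusted p = 7.85e-05), and Krt5 had a log2 fold change of 0.67 (SE 0.10). Krt10, the keratin of differentiated suprabasal cells, measured 21.1, 26.2 and 20.9 CPM and 30.9, 30.8 and 32.7 CPM and was not called (adjusted p = 0.0615, and 0.0422 without wounded replicate 1). Its partner Krt1 was at or under 1.66 CPM in every library. Of 4 simple epithelial keratins, 0 were called with all libraries, and Krt7 and Krt8 were called lower without replicate 1.

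**Figure D2:**
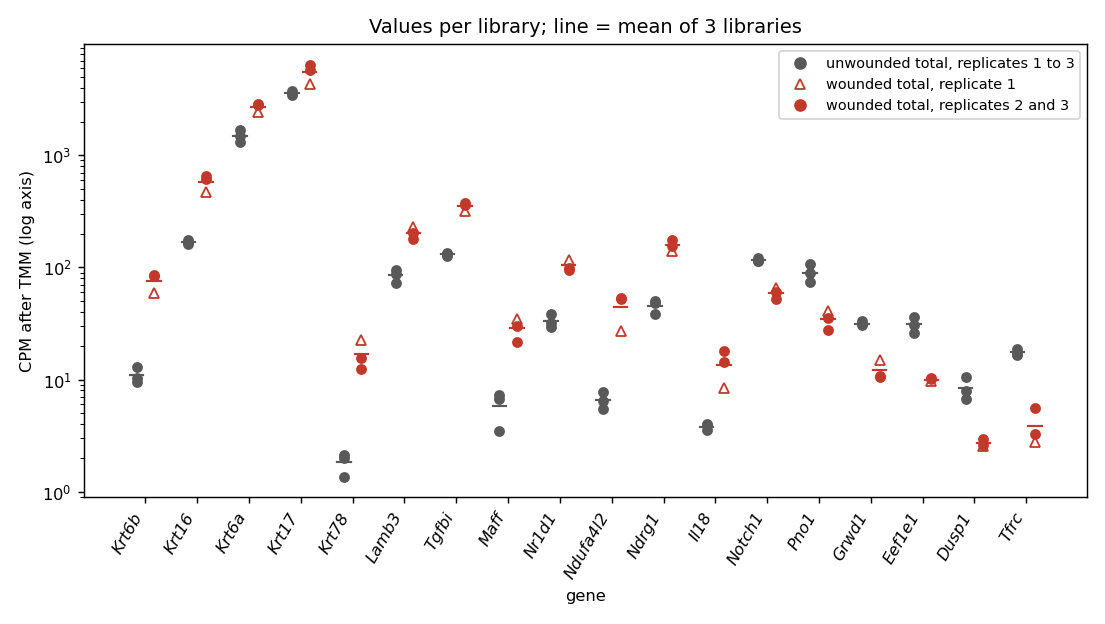
CPM after TMM on a log axis (vertical) is plotted for each of 18 genes (horizontal) in the 3 unwounded total libraries (grey) and the 3 wounded total libraries (red), with wounded replicate 1 as an open triangle and each group's mean as a line. In all 18 genes the 3 red points lie on one side of the 3 grey ones. The genes were picked, most of them by a rule that asks for groups apart, so this is largely built in. Over all genes tested, the wounded libraries were all above the unwounded ones in 14.5% and all below in 17.6%.

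Contacts with the basement membrane were partly raised. The laminin and wound matrix list had 6 of 18 tested members called higher and 0 lower (5 and 1 without wounded replicate 1, 3 to 6 and 0 to 1 without another, fewest higher without unwounded replicate 2). Scaling by library totals gave 3 and 2. Tgfbi, a secreted matrix protein that binds integrins and is induced by TGF-beta, measured 127, 131 and 134 CPM and then 319.7, 361 and 379 CPM (log2 fold change 1.44, SE 0.10, adjusted p = 2.37e-07). Its values barely varied within a group. Lamb3 and Lama3 encode chains of laminin-332, the laminin that keratinocytes lay down as they move. Lamb3 went from 88.1, 71.9 and 95 CPM to 229, 181 and 204 CPM (log2 fold change 1.27, SE 0.12, adjusted p = 6.14e-06). Lama3 measured 157, 131 and 157 CPM and 248, 156 and 176 CPM and was not called (adjusted p = 0.0761). Wounded replicate 1 was the highest library, and replicate 2 lay within the unwounded range. Col17a1, a hemidesmosome collagen, had a log2 fold change of 0.61 (SE 0.12, adjusted p = 0.00197).

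Integrins, the receptors for these matrix proteins, had 3 of 10 tested subunits called higher and 0 lower (4 and 0 without wounded replicate 1, 2 to 4 and 0 without another). They were Itga3 (log2 fold change 0.68), the laminin-332 receptor subunit, Itgb5 (0.55) and Itga6 (0.40). Itgb1, the common beta subunit, measured 83.3, 81.7 and 91.3 CPM and 108, 96.6 and 91 CPM, and the groups overlapped (adjusted p = 0.171). The fibronectin receptor subunit Itga5 lay at 1.8, 1.3 and 1.65 CPM and 3.2, 1.74 and 1.35 CPM, too low and too variable to separate the groups (adjusted p = 0.664). Among actomyosin and focal adhesion genes, 6 of 32 were higher and 1 lower (7 and 2 without wounded replicate 1, 3 to 4 and 1 without another, fewest higher without unwounded replicate 1). Actn4, an actin crosslinker, went from 164, 151 and 175 CPM to 285, 292 and 313 CPM (log2 fold change 0.86, SE 0.10, adjusted p = 3.03e-05), and zyxin (Zyx) had a log2 fold change of 0.48. The tropomyosin Tpm3 was the lower one (-0.61). The list of matrix proteases and the plasminogen system had 1 of 12 higher (Mmp14, 0.42) and 1 lower (Serpinb2, -1.15). Left-out counts were 2 and 2 without wounded replicate 1, 0 and 0 to 1 without another. Mmp9 had too few counts to be tested.

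Junction mRNAs rose in part. The desmosome list had 6 of 15 tested members higher and 0 lower (7 and 3 without wounded replicate 1, 2 to 4 and 0 without another, fewest higher without unwounded replicate 1 or 2). Scaling by library totals gave 2 and 0. Dsp (ENSMUSG00000054889, chromosome 13, 38151294 to 38198577), the gene of desmoplakin, measured 228, 189 and 228 CPM in unwounded and 359, 359 and 379 CPM in wounded libraries (log2 fold change 0.76, SE 0.10, adjusted p = 0.000195). The wounded values were close to each other and all above the unwounded ones. The sources used here do not say whether reads from the fusion construct count towards Dsp. The plaque protein plakoglobin (Jup) had a log2 fold change of 0.50 and the plakophilins Pkp1 and Pkp3 had 0.35 and 0.32. The desmosomal cadherins behaved otherwise. Dsc3 measured 159, 143 and 146 CPM and 159, 99.9 and 86.1 CPM, so that replicate 1 sat with the unwounded libraries and replicates 2 and 3 far below them (adjusted p = 0.125, and 1.03e-05 without replicate 1). Dsg3 showed the same split, at 62.9, 64.4 and 69 CPM and 80.4, 41.4 and 45 CPM.

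Tight junctions, which seal the upper epidermis, had 6 of 16 tested members higher and 2 lower (6 and 2 without wounded replicate 1, 4 to 7 and 0 without another). Among the rises were the adhesion molecule F11r (log2 fold change 0.69) and the claudins Cldn1 (0.45) and Cldn4 (0.39). The scaffold Tjp1 went the other way, with 38.8, 37 and 41.5 CPM before and 37.3, 20.4 and 18.8 CPM after wounding (log2 fold change -0.61, SE 0.19, adjusted p = 0.0351). Wounded replicate 1 lay within the unwounded range and replicates 2 and 3 far below it. Of 13 adherens junction genes, 2 were higher, Lima1 (0.85) and Ctnna1 (0.35), and Tjp1 was the 1 lower (2 and 2 without wounded replicate 1, 1 to 2 and 0 without another).

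Genes of late differentiation and of the cornified envelope, the crosslinked protein shell of dying surface cells, were called higher in 8 of 24 tested members and lower in 0. Left-out counts were 8 and 1 without wounded replicate 1, 4 to 6 and 0 without another, fewest higher without unwounded replicate 1 or wounded replicate 3, and scaling by library totals gave 4 and 0. The small proline-rich proteins that are crosslinked into this shell led the list. Sprr2d measured 1.97, 2.99 and 2.59 CPM and 7.65, 11 and 10.2 CPM (log2 fold change 1.94, SE 0.30, adjusted p = 0.000438), and Sprr1a measured 7.41, 6.32 and 5.18 CPM and 19.8, 17.5 and 20.2 CPM (log2 fold change 1.60, SE 0.24, adjusted p = 0.000328). Both were low in every library but apart between the groups. Dermokine (Dmkn) went from 414, 395 and 386 CPM to 639, 589.7 and 552 CPM (log2 fold change 0.57, SE 0.10, adjusted p = 0.000794). Involucrin (Ivl, 0.72) was called with all libraries (adjusted p = 0.0465) and not without replicate 1 (adjusted p = 0.2).

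The promoters of 4 strongly raised genes are shown because each holds a match to TGANTCA. This pattern was used here for the AP-1 site, that of the Fos and Jun family of factors that respond to injury. The genes were picked for having a match, and the one in Plet1 is TGATTCA. Sequences are from RefSeq on GRCm38.p6, the 250 bases before the annotated start, 5′ to 3′ on the strand of the gene, with matches to TGANTCA in capitals. The windows are chr14:34355394-34355643 (minus strand) for Fam25c, chr3:92338890-92339139 (plus) for Sprr2d, chr9:50494275-50494524 (plus) for Plet1 and chr3:92485882-92486131 (minus) for Sprr1a.
Fam25c: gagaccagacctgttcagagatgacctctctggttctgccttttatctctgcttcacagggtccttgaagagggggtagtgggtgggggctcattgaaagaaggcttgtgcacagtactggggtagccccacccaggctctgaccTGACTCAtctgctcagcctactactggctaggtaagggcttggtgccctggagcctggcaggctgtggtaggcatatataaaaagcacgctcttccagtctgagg
Sprr2d: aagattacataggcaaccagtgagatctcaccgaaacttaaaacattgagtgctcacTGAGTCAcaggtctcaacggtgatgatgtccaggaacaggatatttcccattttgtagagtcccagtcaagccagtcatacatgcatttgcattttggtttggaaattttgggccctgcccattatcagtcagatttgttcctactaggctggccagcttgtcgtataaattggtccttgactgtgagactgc
Plet1: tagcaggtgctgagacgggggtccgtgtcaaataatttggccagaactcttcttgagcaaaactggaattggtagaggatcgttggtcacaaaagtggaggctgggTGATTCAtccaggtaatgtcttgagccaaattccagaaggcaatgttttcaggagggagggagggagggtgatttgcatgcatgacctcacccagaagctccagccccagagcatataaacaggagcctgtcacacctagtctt
Sprr1a: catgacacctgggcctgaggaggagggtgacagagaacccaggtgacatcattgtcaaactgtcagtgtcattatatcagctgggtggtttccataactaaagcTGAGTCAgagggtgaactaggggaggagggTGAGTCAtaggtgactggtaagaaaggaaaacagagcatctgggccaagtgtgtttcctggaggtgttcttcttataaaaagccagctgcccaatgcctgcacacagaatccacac
The match starts 105 bases before the start in Fam25c, 193 in Sprr2d and 144 in Plet1, and Sprr1a has 2, at 146 and 116 bases. Promoters were found for 9598 of the tested genes, as windows of 300 bases that run from 250 before to 50 after each start. On either strand, TGANTCA was in 7.79% of the promoters of genes called higher, 3.45% of those called lower and 5.49% of those of all tested genes, against 7.81% of all promoters of the table. Among named genes with a promoter, 11 of 50 that rose and 0 of 29 that fell held it in any of their promoters. That count is per gene and not per promoter, and it was not made over all tested genes, so it has no matching share. The TEAD sequence GGAATG was in 14.4%, 11.6% and 12.1% of the promoters of higher, lower and all tested genes. The E-box CACGTG, added after the values were seen, was in 10.1%, 12.2% and 9.81%. By the same count per named gene, GGAATG was in 10 of 50 that rose and 2 of 29 that fell, and CACGTG in 7 of 50 and 7 of 29. A match is a stretch of letters, and binding was not measured.

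The AP-1 and immediate early factors themselves were split, with 4 of 21 tested members higher and 6 lower (3 and 8 without wounded replicate 1, 3 and 2 to 5 without another, fewest lower without wounded replicate 3). The lower count was 3 without unwounded replicate 2 or 3 and also in a fit of the 6 total libraries alone. Maff (ENSMUSG00000042622, chromosome 15, 79346621 to 79359076), a small Maf protein without an activating domain, measured 7.33, 6.72 and 3.48 CPM and 35, 29.8 and 21.8 CPM (log2 fold change 2.30, SE 0.29, adjusted p = 8.61e-05), the largest rise of the list. Junb went from 88.5, 75.9 and 88.7 CPM to 153, 129 and 119.8 CPM (log2 fold change 0.67, SE 0.11, adjusted p = 0.000794) and Ier3 had a log2 fold change of 0.74. Fos and Egr1, classical early genes, were lower. Fos measured 4.56, 5.93 and 6.95 CPM and 1.78, 3.65 and 2.21 CPM (log2 fold change -1.18, SE 0.34, adjusted p = 0.0254), and Egr1 measured 14.5, 15 and 18.6 CPM and 10.7, 7.69 and 6.19 CPM (-0.97, SE 0.24). Dusp1, a phosphatase that switches off MAP kinases, fell by 1.65 on the log2 scale, from 10.6, 7.96 and 6.72 CPM to 2.55, 2.58 and 2.94 CPM, and Dusp6, which acts on ERK, had a log2 fold change of -1.34 and Myc of -0.75.

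Few cytokine genes reached a level that could be tested. Of 31 cytokines, chemokines and receptors listed, 13 had enough counts, and 4 of these were called higher and 0 lower (5 and 0 without wounded replicate 1, 2 to 4 and 0 without another, fewest higher without unwounded replicate 1). Il18, an epithelial alarm cytokine of the interleukin-1 family, measured 3.99, 3.89 and 3.53 CPM and 8.43, 14.4 and 17.8 CPM (log2 fold change 1.83, SE 0.28, adjusted p = 0.000449). Wounded replicate 1 was the lowest of its group but still clear of the unwounded values. Tslp, a cytokine that keratinocytes release when the barrier is damaged, measured 0.175, 1.3 and 0.295 CPM and 6.23, 3.87 and 4.97 CPM (log2 fold change 3.09, SE 0.76, adjusted p = 0.0111). The skin chemokine Ccl27a (log2 fold change 1.26) and the interleukin-1 antagonist Il1rn (0.98) were the other two. Il1a, Il1b, Il6, Tnf and Cxcl2, classical wound cytokines, had too few counts to be tested. Of 12 antimicrobial and alarmin peptides, 2 were higher and 1 lower (4 and 1 without wounded replicate 1, 1 to 3 and 0 to 1 without another). The beta-defensin Defb14 measured 3.03, 4.57 and 4.71 CPM and 5.93, 14.8 and 13.6 CPM (log2 fold change 1.48, SE 0.37, adjusted p = 0.0126) and S100a6 had a log2 fold change of 0.91, while the protease inhibitor Slpi was lower (-0.77).

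The lists of growth factor and tension pathways were small. The EGF and TGF-beta lists had a single call each, 8.33% of members, near the shares over all genes (8.39% higher, 7.2% lower). YAP and TEAD targets had 17.6% of members higher. Among 12 EGF receptor ligands and family members, 0 were higher, and the ligand Epgn was lower (log2 fold change -1.28, SE 0.33, adjusted p = 0.0141). Left-out counts were 1 and 1 without wounded replicate 1, 0 and 1 without another. Hbegf, a ligand released at wounds, measured 6.49, 7.85 and 6.07 CPM and 8.9, 3.82 and 3.98 CPM, with wounded values on both sides of the unwounded ones (adjusted p = 0.631). The YAP and TEAD targets had 3 of 17 higher and 0 lower (4 and 1 without wounded replicate 1, 2 and 0 without another). Scaling by library totals gave 2 and 2. The higher ones were the matricellular protein Ctgf (6.93, 4.8 and 5.48 CPM and 13.3, 10.2 and 13.1 CPM, log2 fold change 1.08), Amotl1 (0.55) and Tead4 (0.37). In the TGF-beta list the ligand Tgfb1 was the single call of 12 (0.62, adjusted p = 0.00801). Left-out counts were 1 and 1 without wounded replicate 1, 1 and 0 without another. The mechanosensitive channel Piezo1 was among the 15 largest falls, from 12.5, 8.24 and 8.6 CPM to 4.15, 2.81 and 2.45 CPM (log2 fold change -1.64, SE 0.29, adjusted p = 0.00125). Its gene overlaps Ctu2 on the other strand.

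Among regulators of keratinocyte fate, individual genes changed in each direction, while with all libraries the list counts were small and close to the shares over all genes. Notch1 (ENSMUSG00000026923, chromosome 2, 26457903 to 26516663), the receptor that pushes basal cells into differentiation, measured 121, 113 and 114 CPM and 65.4, 52.1 and 60.2 CPM (log2 fold change -0.97, SE 0.11, adjusted p = 2.69e-05). Every wounded value lay well below every unwounded one, and Notch1 was the only call among 12 pathway genes (0 and 4 without wounded replicate 1, 0 and 1 without another). Of 23 epidermal transcription factors, 2 were higher and 2 lower (2 and 3 without wounded replicate 1, 1 and 1 to 2 without another). Grhl3, a factor of barrier formation and wound closure, measured 9.96, 9.26 and 12.8 CPM and 6.82, 4.38 and 2.39 CPM (log2 fold change -1.23, SE 0.31, adjusted p = 0.0133), and Ovol1 fell by 0.69 on the log2 scale. Elf3 (0.63) and Ehf (0.99), both ETS factors of epithelia, were the higher ones. Hr, the corepressor hairless, fell from 31.5, 30.3 and 23.8 CPM to 5.82, 9.26 and 12.2 CPM (log2 fold change -1.65, SE 0.22, adjusted p = 0.000163).

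Glycolysis and hypoxia genes had 9 of 27 tested members higher and 2 lower (12 and 4 without wounded replicate 1, 6 to 9 and 1 to 2 without another). Ndufa4l2, a HIF-induced protein that restrains respiration, measured 7.72, 6.38 and 5.48 CPM and 26.9, 52.5 and 53.8 CPM (log2 fold change 2.76, SE 0.23, adjusted p = 1.20e-06). It overlaps Shmt2 on the other strand, which measured 128, 129.6 and 174 CPM and 177, 164 and 166 CPM and was not called. Ndrg1, induced by low oxygen and by stress, went from 48.4, 38.3 and 49.8 CPM to 139, 155 and 177 CPM (log2 fold change 1.79, SE 0.13, adjusted p = 4.22e-07). The glucose transporter Slc2a1 (0.77), the hexokinase Hk1 (0.75), the phosphofructokinases Pfkl (0.50) and Pfkp (0.52), their activator Pfkfb3 (0.97), the aldolase Aldoa (0.49) and the pyruvate kinase Pkm (0.72) were higher by these log2 fold changes. The 2 lower members were Hif1a itself, at 42.5, 45.2 and 43.8 CPM and 27.7, 32.8 and 27 CPM (log2 fold change -0.59, SE 0.16, adjusted p = 0.0178), and Egln3 (-0.36), an enzyme that marks HIF proteins for decay.

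Stress pathways were mixed. The NRF2 list had 5 of 23 higher and 2 lower (6 and 4 without wounded replicate 1, 3 to 6 and 1 to 2 without another, fewest higher without unwounded replicate 1). The rises were led by the autophagy receptor Sqstm1 (0.78), with Tkt, Taldo1 and Pgd of the pentose phosphate pathway and the cystine carrier Slc7a11 (0.54). Its 2 lower members were the reductases Txnrd1 (log2 fold change -1.10, SE 0.17, adjusted p = 0.00041) and Gsr (log2 fold change -0.96, SE 0.24, adjusted p = 0.0114). Of 29 genes of the ATF4 and amino acid response 7 were higher and 2 lower (7 and 3 without wounded replicate 1, 4 to 7 and 2 without another, fewest higher without unwounded replicate 1 or 2). Among the rises were Ppp1r15a (0.96), Nupr1 (0.92) and Ddit4 (0.78) with the largest changes, while the amino acid carrier Slc7a5 (-0.79) and the factor Atf5 (-0.71) were lower. Genes of the unfolded protein response and of folding in the endoplasmic reticulum had 2 of 23 higher and 3 lower, Sdf2l1 (-0.74), Manf (-0.68) and Hyou1 (-0.39). Left-out counts were 4 and 8 without wounded replicate 1, 0 to 1 and 2 to 3 without another. Heat shock and chaperone genes had 5 of 20 higher, Hspa4l (log2 fold change 1.08, SE 0.10, adjusted p = 6.14e-06) first, and 2 lower. Left-out counts were 8 and 3 without wounded replicate 1, 2 to 5 and 1 without another, fewest higher without unwounded replicate 1 or wounded replicate 2. Interferon response genes had 2 of 14 higher and 0 lower, Irf7 (1.07) and Ifi27 (0.97). Left-out counts were 3 and 0 without wounded replicate 1, 1 to 2 and 0 without another. Cholesterol genes had 2 higher and 2 lower of 23, close to the shares over all genes (3 and 3 without wounded replicate 1, 0 to 1 and 1 to 2 without another). Fatty acid synthesis genes had 1 higher and 1 lower of 12, also close to those shares (1 and 3 without wounded replicate 1, 0 to 1 and 1 without another).

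The transferrin receptor Tfrc (ENSMUSG00000022797, chromosome 16, 32608920 to 32632794), through which cells take up iron, had the largest fall among nuclear genes that met the naming rule. It measured 18.8, 17 and 16.6 CPM in unwounded and 2.79, 3.26 and 5.52 CPM in wounded libraries (log2 fold change -2.18, SE 0.27, adjusted p = 8.54e-05). Every wounded value lay far below every unwounded one. In a list of iron genes added after the values were seen, 1 of 9 was lower, Tfrc, and 1 higher, Steap3, an iron reductase of endosomes (1.12). Fbxl5, which controls iron-regulatory proteins, was also called lower without wounded replicate 1 (adjusted p = 0.0125, and 0.494 with all libraries).

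Of 17 clock genes, 4 were higher and 0 lower (4 and 2 without wounded replicate 1, 2 to 4 and 0 without another, fewest higher without unwounded replicate 2). Dbp, a transcription factor driven directly by the clock, measured 4.04, 1.24 and 2.12 CPM and 15.1, 10.9 and 12.4 CPM (log2 fold change 2.36, SE 0.45, adjusted p = 0.00224). Nr1d1, the repressor REV-ERB alpha, measured 38.4, 29.4 and 32 CPM and 117, 99.7 and 95 CPM (log2 fold change 1.64, SE 0.13, adjusted p = 6.66e-07). Dbp overlaps Sphk2 and Nr1d1 overlaps Thra on the other strand, and both neighbours were also called higher, by 0.39 and 0.42. Nr1d2 and Ciart were called only with wounded replicate 1, whose values of 23.2 and 12.7 CPM were the highest of their group. The hour at which each dish was lysed is not given in the labels.

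Other genes with large rises belong to no list. They were 2610528A11Rik, the mouse gene of the ligand of the receptor GPR15 (7.63, 8.64 and 10.3 CPM and 39, 48.2 and 46.3 CPM, log2 fold change 2.34, SE 0.18, adjusted p = 6.84e-07), the retinol carrier Rbp2 (2.10) and Selenbp1 (1.95). Further ones were the secreted chaperone clusterin (Clu, 1.87), Dapl1 (2.13) and the surface protein Plet1 (1.81). Fam25c measured 30.7, 53.8 and 41.8 CPM and 69.6, 206 and 247 CPM (log2 fold change 2.05, SE 0.31, adjusted p = 0.00038). Its value in wounded replicate 1 was much nearer to the unwounded libraries than those in replicates 2 and 3.

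Genes that build ribosomes fell in part. This list was added after the values were seen, so its count is a description: 4 of 51 members were higher and 23 lower (6 and 26 without wounded replicate 1, 0 to 6 and 19 to 21 without another, fewest higher without unwounded replicate 1 or 2 or wounded replicate 2 or 3). The lower count was 25 or 26 under upper quartile scaling and scaling by library totals, and 21 with the gene length trend removed. Pno1, needed to mature the small subunit, measured 107, 89.5 and 74 CPM and 40.5, 35 and 27.4 CPM (log2 fold change -1.39, SE 0.15, adjusted p = 2.56e-05). Grwd1, a chaperone for a ribosomal protein, measured 33, 30.5 and 31.1 CPM and 15, 10.6 and 10.8 CPM (log2 fold change -1.38, SE 0.18, adjusted p = 0.000152), and in both genes every wounded value lay far below every unwounded one. Pus7, a pseudouridine synthase, Dimt1, which methylates ribosomal RNA, and Heatr3, an import factor for ribosomal proteins, fell by 1.35, 1.31 and 1.51 on the log2 scale. The core proteins of the small nucleolar particles, Nop56 (-0.71), Nop58 (-0.68) and fibrillarin (Fbl, -0.55), were lower by less. In all 3 wounded libraries the median of the list was below the unwounded mean by a like amount, -0.39 in replicate 1, -0.40 in replicate 2 and -0.42 in replicate 3 on the log2 scale.

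Translation factors were split between 6 higher and 7 lower of 25 (8 and 9 without wounded replicate 1, 3 to 5 and 6 to 7 without another, fewest higher without unwounded replicate 1 or wounded replicate 3). Higher were Eif5b, which joins the ribosomal subunits, from 102, 100.4 and 156 CPM to 232, 215 and 261 CPM (log2 fold change 0.98, SE 0.14, adjusted p = 0.000302), and the scaffolds Eif3a (0.67), Eif3c (0.56) and Eif4g1 (0.40). Lower were Eif1a, which helps select the start codon (-0.92), the scaffold Eif4g2 (-0.69), the cap-binding protein Eif4e (-0.61) and Eif5a (-0.60). Eef1e1, a part of the complex of aminoacyl-tRNA synthetases, fell from 30.9, 36.3 and 26 CPM to 9.67, 10.1 and 10.2 CPM (log2 fold change -1.63, SE 0.17, adjusted p = 1.11e-05).

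The list of p53 targets and cell cycle inhibitors was lower in part, with 0 of 18 tested members higher and 7 lower (1 and 6 without wounded replicate 1, 0 and 4 to 7 without another, fewest lower without unwounded replicate 1 or 2 or wounded replicate 2). With the gene length trend removed, 5 were lower and 2 higher. Mdm2, which degrades p53 and is induced by it, measured 76.9, 77.8 and 71.8 CPM and 56.8, 44.8 and 41.3 CPM (log2 fold change -0.66, SE 0.12, adjusted p = 0.00113). Aen, a nuclease, measured 89.1, 87.4 and 81.9 CPM and 54.2, 53.2 and 48.8 CPM (log2 fold change -0.73, SE 0.11, adjusted p = 0.000431). The cell cycle inhibitor Cdkn1a was lower by less, at 294, 303 and 283 CPM and 226, 227 and 231 CPM (log2 fold change -0.36, SE 0.09, adjusted p = 0.0125), and its groups did not overlap. Mitosis genes had 0 of 25 higher and 4 lower, among them Cdk1 (-0.43) and the cytokinesis regulator Ect2 (-0.81). Left-out counts were 1 and 12 without wounded replicate 1, 0 to 1 and 2 to 4 without another, fewest lower without unwounded replicate 1. Replication genes had 1 of 25 higher, Lig1 (log2 fold change 0.81), and 2 lower, Ccnd1 (log2 fold change -0.90, SE 0.14, adjusted p = 0.000533) and Rrm2 (-0.52). Left-out counts were 1 and 5 without wounded replicate 1, 1 to 2 and 1 to 2 without another. The histone chaperone Asf1b measured 18.6, 13.9 and 15 CPM and 0.771, 5.05 and 6.62 CPM (log2 fold change -1.93, SE 0.44, adjusted p = 0.00708). Wounded replicate 1 lay far below the rest of its group.

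**Figure D3:**
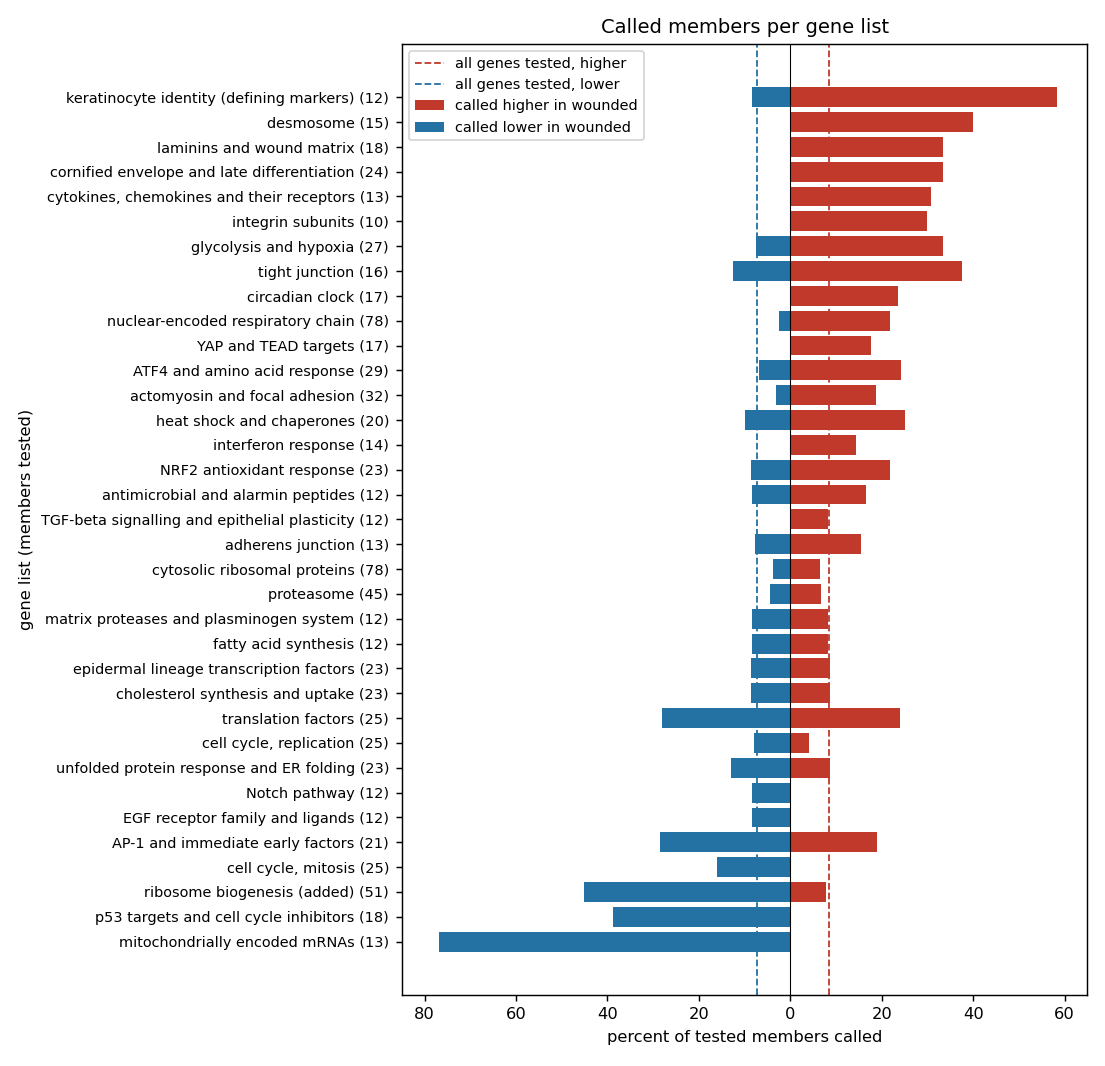
For each gene list with at least 10 tested members (number in brackets), the bars give the percent of members called higher (red, right) and lower (blue, left) in wounded libraries. Dashed lines mark the shares over all genes tested, 8.39% higher and 7.2% lower. The lists run from desmosome and matrix genes near the top to mitochondrially encoded mRNAs at the bottom, with p53 targets and cell cycle inhibitors also near the bottom.

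Mitochondrially encoded mRNAs, which mitochondrial ribosomes translate, rose in 0 of 13 members and fell in 10 (0 and 11 without wounded replicate 1, 0 and 9 to 11 without another). Their share of all counts was 7.63% ± 1.58 (SD, n = 3) in unwounded and 3.19% ± 0.523 (SD, n = 3) in wounded libraries, a difference of -4.44 percentage points. The groups did not overlap, and the two-sided exact permutation p was 0.1, the smallest that 3 against 3 allows. The cytochrome oxidase subunit mt-Co1 measured 4909, 3754 and 4088 CPM and 1944, 1445 and 1017 CPM (log2 fold change -1.53, SE 0.17, adjusted p = 2.97e-05), and mt-Nd5 of complex I measured 5164, 4054 and 5058 CPM and 1552, 1907 and 1556 CPM (log2 fold change -1.51, SE 0.12, adjusted p = 6.66e-07). The ATP synthase subunit mt-Atp6 had the largest fold change of the named falls but also wide spread, with 2015, 887 and 1679 CPM and 114, 577 and 205 CPM (log2 fold change -2.36, SE 0.41, adjusted p = 0.00105). The 3 members not called, mt-Co2, mt-Co3 and mt-Atp8, include mt-Co3 at 182, 212 and 269.6 CPM and 49.6, 251 and 181 CPM, where wounded replicate 1 lay far below the unwounded range, replicate 2 within it and replicate 3 just under it.

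Genes of the cytosolic ribosome, the nuclear-encoded respiratory chain and the proteasome gave opposite pictures in wounded replicate 1 and in the other two. Of 78 cytosolic ribosomal proteins, 5 were higher and 3 lower with all libraries, but 46 and 4 without replicate 1. Of 78 nuclear respiratory chain genes, 17 were higher and 2 lower, and 55 and 2 without it. Of 45 proteasome genes, 3 were higher and 2 lower, and 23 and 3 without it. The median log2 ratio to the unwounded mean was -0.18, 0.37 and 0.36 in replicates 1 to 3 for ribosomal proteins. It was -0.16, 0.40 and 0.51 for the respiratory chain and -0.19, 0.22 and 0.33 for the proteasome. Unwounded replicate 2 was also apart, at 0.24 for ribosomal proteins and 0.16 for the respiratory chain, where the other two unwounded libraries were at -0.12 and -0.08 to -0.12. Cox6c, a small subunit of cytochrome oxidase, shows the pattern, with 760.4, 829 and 722 CPM and 781, 1343 and 1432 CPM (log2 fold change 0.62, SE 0.16, adjusted p = 0.0173; without replicate 1 it was 2.64e-07). Other libraries moved these counts too. Ribosomal proteins called higher numbered 19 without unwounded replicate 2 and 1 or 2 without any other of the remaining 4. Respiratory chain genes called higher numbered 17 without unwounded replicate 2, 7 without unwounded replicate 3 and 2 to 5 without the others.

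**Figure D4:**
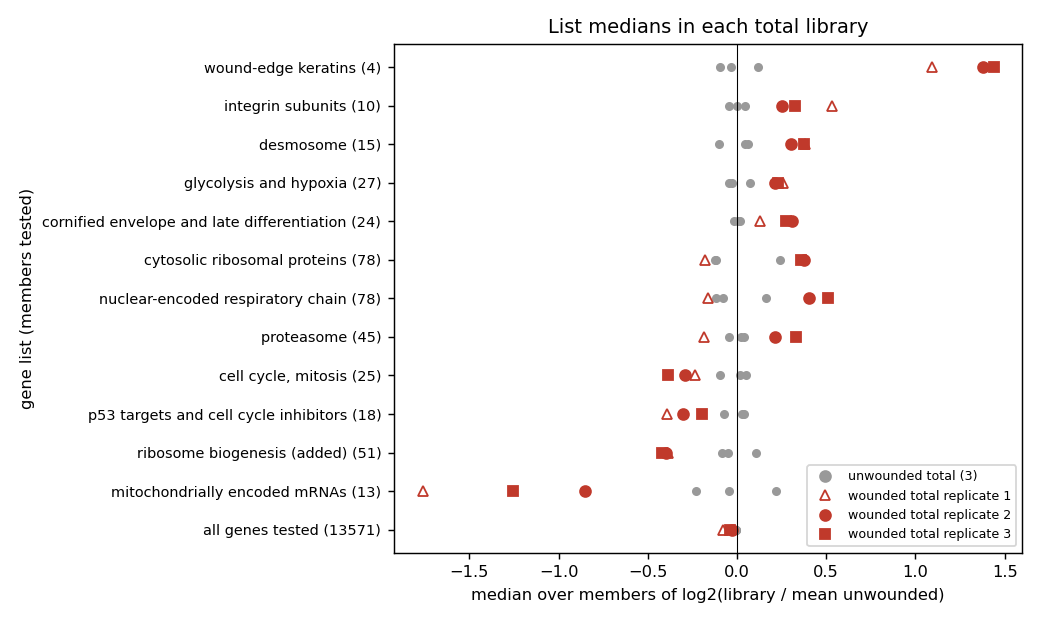
For 12 gene lists and for all genes tested (number of members in brackets), each symbol is the median over members of the log2 ratio of 1 total library to the unwounded mean (horizontal), with unwounded libraries in grey and wounded ones in red. The open triangle of wounded replicate 1 lies left of 0 for ribosomal proteins (-0.18), the respiratory chain (-0.16) and the proteasome (-0.19), where replicates 2 and 3 lie right of it, and sits with them for ribosome biogenesis (-0.39).

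Some calls turned on wounded replicate 1. These genes were chosen by that dependence, so a difference between that library and replicates 2 and 3 is partly built in, and they are given as a description. Of the protein coding genes called only without it, with a mean of at least 100 counts, those with the largest changes were Pdss1, Polk, Mtbp, Zbtb33 and Paxbp1, all lower. Paxbp1 measured 19.7, 17 and 21.6 CPM and 24.5, 7.86 and 6.01 CPM, and Zbtb33 measured 19.7, 14.6 and 14.8 CPM and 18.3, 5.22 and 5.58 CPM. In both, replicate 1 sat at the unwounded level and replicates 2 and 3 well below it. The largest changes called only with it were in Ciart, Nr1d2, Btbd9, Noc3l and Rgmb, which had adjusted p = 0.0543 to 0.135 without it. In Nr1d2 and Btbd9 every wounded value lay above every unwounded one, and in Noc3l and Rgmb below. In Ciart the groups overlapped. The cold-inducible RNA-binding protein Rbm3 was called in both fits but by different amounts, at 333, 299.8 and 210.5 CPM and 189, 77 and 45.6 CPM (log2 fold change -1.44, and -2.20 without replicate 1). It was chosen after its values were seen.

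Gene length moved weakly with the response. Across genes, which are not independent replicates, the Spearman rho between gene length and log2 fold change was -0.0994, and -0.158 without wounded replicate 1. With a length trend removed from each library, 1909 genes were higher and 664 lower. The part of length in the counts above was not tested beyond this.

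The wound response of the total translatome was set beside that of the cortical one, measured in the other 6 libraries. There 337 genes were called (2.48% of those tested), and 1276 (9.07%) when wounded total replicate 1, which shares the estimate of the spread, was left out. Both fractions called 258 genes in the same direction, 12.2% of the total and 76.6% of the cortical calls, and 3 in opposite directions. Without that library 879 were shared, 25.1% of the total and 68.9% of the cortical calls, and 6 were opposite. The difference between the 2 responses was tested as an interaction, and 17 genes passed (0.125%), with 1228 at an unadjusted p under 0.05 by the same edgeR test. Without wounded replicate 1, 413 genes passed, and all 17 were among them.

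Of the keratins, 3 rose more in the total than in the cortical fraction. Krt78 changed by 3.19 in the total and by 1.08 in the cortical fraction on the log2 scale (difference 2.11, SE 0.38, adjusted p = 0.0325), Krt6b by 2.80 and 1.5 (difference 1.30, adjusted p = 0.0325) and Krt16 by 1.77 and 0.88 (difference 0.89, adjusted p = 0.0396). Krt6a, Krt17, Krt14, Krt5 and Krt10 did not pass this test (adjusted p = 0.511 to 0.895). For Krt6b the wounded levels were alike, at 58.7, 83.4 and 85.6 CPM in the total and 68.6, 79.8 and 79 CPM in the cortical libraries, while the unwounded ones were 12.8, 9.48 and 10.3 CPM and 28.7, 22 and 29.9 CPM. A second set of genes was near flat in the total and fell in the cortical fraction. Acaca, whose protein carries biotin, measured 39.4, 36.9 and 41.8 CPM and 44.3, 40.4 and 53.3 CPM in the total libraries, where the groups overlapped, and 477, 467 and 462 CPM and 236, 203 and 209.5 CPM in the cortical ones (difference 1.34, adjusted p = 0.00126). Atf4, the stress factor, measured 478, 522 and 475 CPM and 376, 464 and 515 CPM in the total and 1355, 1393 and 1382 CPM and 641, 607 and 582 CPM in the cortical libraries (difference 1.05, adjusted p = 0.012). The NF-kappa-B inhibitor Nfkbia rose in the total (0.47) and fell in the cortical fraction (-0.86), as did Bag3 (0.34 and -0.72) and Atf6 (0.38 and -0.66). In the other direction, Rhno1 fell in the total (-0.88) and had a cortical log2 fold change of 0.33 (adjusted p = 0.304).

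**Figure D5:**
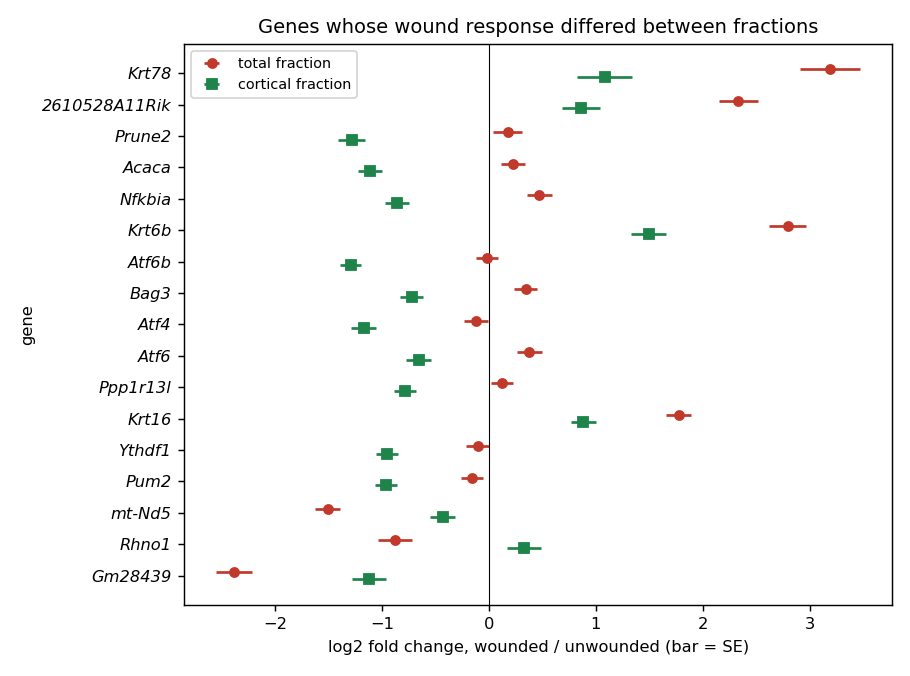
For the 17 genes that passed the test of the difference, the log2 fold change of wounded over unwounded (horizontal) is shown in the total fraction (red circles) and the cortical fraction (green squares), with bars of 1 SE. Krt78, Krt6b and Krt16 lie right of 0 in both fractions and further right in the total, while Prune2, Acaca and Atf6b lie near 0 in the total and left of it in the cortical fraction.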

How the data were processed

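The authors deposited raw fragment counts per gene and FPKM values (the same counts per gene length and effective depth), 1 column per library in each table. The submitters' processing notes name CASAVA, HISAT2 and mm10; the counting tool and annotation release are not given in the sources used here. Per the labels, poly-T beads selected the mRNA, random hexamers primed it and the libraries were non-directional. All per-sample columns were mapped, 0 were left out.

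The deposited counts went into edgeR 4.0.16 under R 4.3.3. Genes were filtered with filterByExpr and scaled by TMM, and a quasi-likelihood model with 4 group means took in all 12 libraries, which share its estimate of the spread. The wounded against unwounded total contrast was tested two-sided and adjusted by Benjamini-Hochberg over all genes at 0.05. SE is that of the log2 fold change. List medians per library used log2 of CPM plus 0.5. On simulated counts with 200 genes changed between the total groups, the model recovered 78% of changes of 1 log2 unit and 33% of those of 0.6 among 13097 genes, with 9 false calls of 120. All simulated libraries were drawn from a common mean profile, without the missing genes of wounded replicate 1 and with fewer changed genes than were called. These rates therefore need not hold for the data above. A first criterion of over 80% for the larger change was not met, and the fit was then judged on its false calls and on the median estimate. Figures were drawn with matplotlib.

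The libraries, the 41 gene lists and the naming rule were chosen with earlier results of these data known, and 2 lists, ribosome biogenesis and iron, after the values here were seen. Named genes were protein coding with a mean of at least 100 counts, called with and without wounded replicate 1, with groups apart: the 15 largest in each direction, up to 3 per list, a fixed set of keratins and wound genes, and the 5 largest called in only 1 of the 2 fits. Other list members and interaction genes were named after their values were seen. Alternatives were scaling by RLE, by upper quartile or by library size, DESeq2 1.42.0, limma 3.58.1 on log2 of the deposited FPKM plus 1, voom with library quality weights, other filters and thresholds, only the 6 total libraries, a replicate block, thinning, the mitochondrial chromosome or a gene length trend (loess, span 0.5) removed, and each library left out. Leaving libraries out of the interaction (other than wounded replicate 1), the other 2 gene length values and the E-box were chosen after seeing the data. Some members that the list counts include are not reported here by name.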

Additional observations from a re-analysis of the deposited data

Results flagged for a closer look

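By the edgeR test of the difference itself, the wound response differed between the total and cortical fractions in 17 genes, given here as total minus cortical in log2 units. The difference was positive in 14. Krt78 (2.11), 2610528A11Rik (1.48), Krt6b (1.30) and Krt16 (0.89) rose in both fractions and more in the total. Nfkbia (1.33), Bag3 (1.07) and Atf6 (1.04) rose in the total and fell in the cortical fraction. Prune2 (1.46), Acaca (1.34), Atf6b (1.28), Atf4 (1.05), Ppp1r13l (0.91), Ythdf1 (0.85) and Pum2 (0.81) fell in the cortical fraction and were not called in the total. The difference was negative for mt-Nd5 (-1.07), Rhno1 (-1.21) and Gm28439 (-1.27), an unprocessed pseudogene on chromosome 1, which fell in the total. Of these, Gm28439 was also called lower in the cortical fraction. Wounded total replicate 1, whose TMM factor and mitochondrial share lie near those of the wounded cortical libraries, enters each of these values, and the 17 genes also passed without it.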

How the results depend on the processing

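The number of called genes (2116) was within 1.5 times of itself under every scaling, DESeq2, limma on FPKM, the 2 other count filters, thinning and removal of the mitochondrial chromosome or the length trend. It was 5206 with library quality weights (2669 higher, 2537 lower), 1175 with only the 6 total libraries (663 and 512), 380 with a fold change of at least 1 log2 unit (170 and 210) and 926 at an adjusted p under 0.01 (520 and 406). The higher genes numbered 708 under library size scaling and 1909 with the length trend removed. Leaving out 1 library gave 1128 (without unwounded replicate 1) to 3502 (without wounded replicate 1) called genes, with 1347 and 1403 without unwounded replicate 2 and wounded replicate 3. That is 600 to 1887 higher and 528 to 1615 lower. The difference between fractions, with 17 genes, gave 9 to 413, and 9 to 11 for libraries other than wounded replicate 1. Gene length rho was -0.158 without that library. The cause of these moves was not tested.

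The labels do not say whether libraries of the same replicate number form a pair. Same-numbered deviations correlated at 0.0647, 0.0913 and -0.00394, and those of different numbers at -0.0906 to 0.0542. Of the same-numbered pairs, 1 of the 3 was not the best match. Correlations this small cannot decide whether the libraries were paired. With the replicate block, 2038 genes were called and 10 for the difference between fractions; with the block and without wounded replicate 1, 3231 (1749 higher, 1482 lower). The 118 called named genes kept their direction in every setting run, and 74 were called in all of them. No alternative reversed a direction among them.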
